A study of Lactuca sativa with 20 samples.

Results

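A group of 60 lettuce genes stood higher after 2 h in either of a pair of hormone treatments, ABA or ACC. In the peptide CLE12p they stood within a set limit of the control level. They were picked from a table of 37828 gene models by measured values. Levels were counts scaled to a common library total (counts per 1000000, CPM), and a difference is between log2 values of group mean CPM with 1 added, which understates the change of genes with low levels. A gene had to average at least 1 CPM over all 20 libraries, to be at least 0.5 higher in ABA and in ACC than in the controls, to be within 0.4 of the controls in CLE12p, and to have every ABA and ACC library above every control library. The values of ABA, ACC, CLE12p and the controls are therefore a description, with no test. The libraries that received the peptide together with a hormone took no part, apart from the filter on the mean.

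Whole seedlings of *Lactuca sativa* Little Gem, 4 days old and raised at 22 °C in continuous light, were placed in solution for 2 h. The groups were CLE12p with ABA, CLE12p with ACC, ABA alone, ACC alone, CLE12p alone, ethanol and water. Each agent was given at 10 µM, ethanol at 0.02%, and every group had 3 libraries except ethanol with 2. The 5 ethanol and water libraries are the controls. The study's design text names the second combination as ABA and ACC, but the labels of those libraries name CLE12p and ACC and were followed. Nothing in the labels says whether ABA was dissolved in ethanol, or whether replicates were separate batches of seedlings, so p-values measure the spread between libraries, which may be technical. In whole seedlings, a change in the number of cells that express a gene and a change in RNA per cell cannot be told apart.

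Abscisic acid (ABA) is a plant hormone of drought, dormancy and stress, sensed by soluble receptors that release protein kinases from inhibition by phosphatases. ACC is the precursor that plant cells oxidise to ethylene, a gas whose receptors control transcription through stabilised transcription factors. Both hormones are known for promoting leaf senescence. CLE peptides are short secreted signals sensed by receptor kinases at the cell surface, and the study's title places LsCLE12 in the delay of senescence. The count table pairs its identifiers with no gene names, and 0 of them matched a reference gene table of 51651 lettuce genes, so no functions can be given and the gene lists planned for both hormone pathways had 0 members. Genes are given by identifier only.

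Library totals lay between 18614220 and 27101622 counts. Of the gene models, 20479 averaged at least 1 CPM. The ABA conditions alone chose 904 of these (4.41%) and the ACC conditions alone 759 (3.71%). Both were met by 97 genes, which is 10.7% of the first list and 12.8% of the second, and the lists share their controls. In CLE12p, 60 of the 97 were within the limit, 36 were at least 0.4 higher than the controls and 1 was at least 0.4 lower. Over all 20479 genes the quartiles of this difference were -0.13 and 0.10, and the share within the limit was not counted. The smaller of the ABA and ACC differences was 0.50 for both genes just inside the limit and 0.49 for both just outside. The CLE12p differences nearest the upper limit were 0.39 and 0.38 inside, and 0.41 and 0.44 outside. At the lower limit they were -0.40 and -0.37 inside, and -0.44 for the single gene outside.

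The 60 genes covered a wide range of levels, with a median of 17.5 CPM (range 1.13 to 331), close to the 17.1 CPM of all genes that passed the same filter. All 60 also passed the low-count filter of the edgeR tests below. Their differences from the controls were moderate. With ABA the median was 0.85 (range 0.50 to 2.87), and 23 genes had at least 1. With ACC the median was 0.74 (range 0.50 to 2.13), and 20 genes had at least 1. Both differences reached 1 in 12 genes and 2 in 0 genes. The summed level of the 60 genes was 2932 to 3147 CPM in ABA and 2927 to 3178 CPM in ACC, against 1271 to 1725 CPM in the controls.

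**Figure D1:**
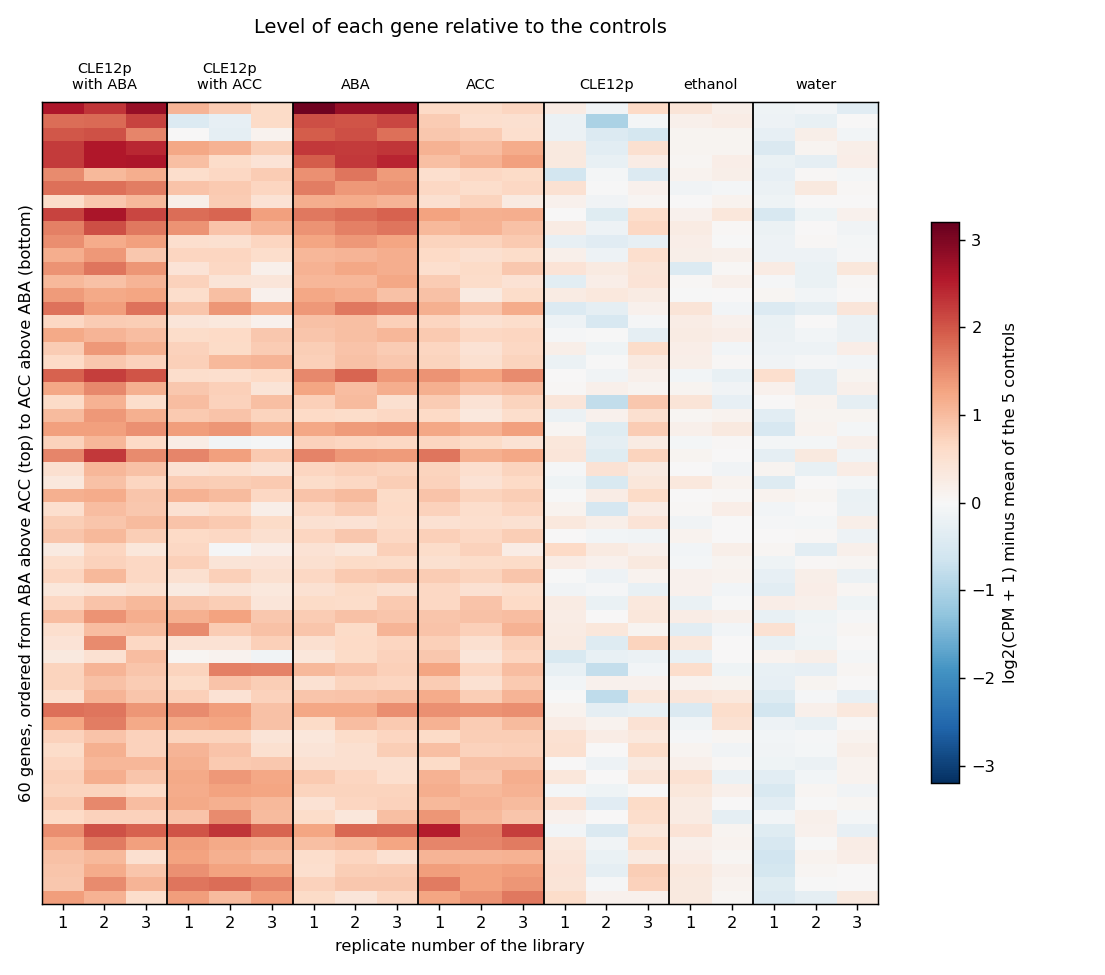
Levels of the 60 genes (rows, ordered by ABA minus ACC) in the 20 libraries (columns, numbered by replicate within each group), as log2(CPM + 1) minus the mean of the 5 controls. ABA and ACC columns are red throughout because of how the genes were chosen; the first 6 columns, which received CLE12p with a hormone and took no part in that choice, are red in most rows, and the CLE12p columns are pale.

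The controls were not equal for these genes. Ethanol stood above water in 48 of 60 genes (80%, against 48.2% of all 20479 genes), with a median difference of 0.17 (-0.01 over all genes). Water replicate 1 was the lowest water library for 38 of the 60 genes (63.3%, against 30.0% of all genes). Against ethanol alone, 51 of the 60 genes kept an ABA difference of at least 0.5 (median 0.72) and 49 an ACC difference of that size (0.72). Against water alone, 59 genes did so for ABA (0.93) and 59 for ACC (0.81). When ABA was set against ethanol, and ACC and CLE12p against water, the rule picked 64 genes, of which 48 were among the 60.

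In CLE12p, 41 of the 60 genes were above the controls (68.3%, against 44.3% of all genes). Their median difference was 0.16, and -0.02 over all genes. The rule had limited these values, so this is a description. The CLE12p libraries differed among themselves. Relative to the controls, the median gene stood at 0.13 in CLE12p replicate 1, at -0.13 in replicate 2 and at 0.31 in replicate 3. Replicate 2 was the lowest of the 3 for 42 of the 60 genes (70%), and for 26.1% of all genes that passed the filter on the mean. Replicate 3 was the highest for 40 genes (66.7%, against 31.4%). In all 3 CLE12p libraries, 4 genes were above every control library (7.85% over all genes). All 3 were below every control for 1 gene (5.47% over all genes). The median SD between CLE12p libraries was 0.28 over the 60 genes and 0.15 over all genes. Without CLE12p replicate 2 the rule kept 44 of the 60 genes and picked 46 in all.

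**Figure D2:**
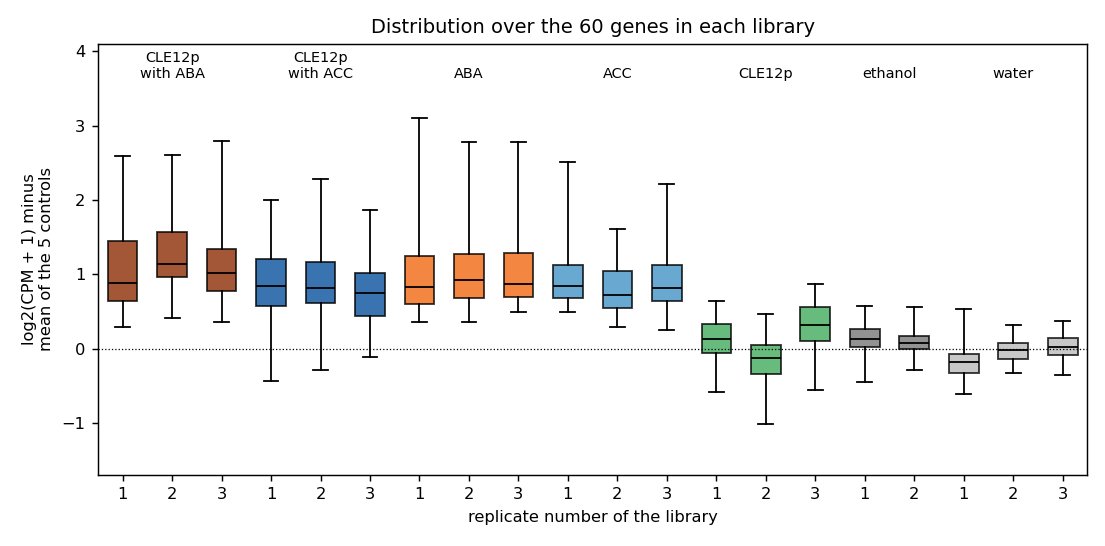
Distribution over the 60 genes in each library of log2(CPM + 1) minus the mean of the 5 controls, with the box at the quartiles, the line at the median and the whiskers at the lowest and highest gene. Medians lie between 0.73 and 1.14 in the 12 libraries with a hormone and between -0.18 and 0.31 in the 8 without, with CLE12p replicate 2 and water replicate 1 lowest.

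The gene with the highest smaller value of its ABA and ACC differences was Lsat_1_v5_gn_4_7141. It had 4.97, 7.83 and 7.01 CPM in CLE12p with ABA, 7.59, 9.48 and 6.86 CPM in CLE12p with ACC, 4.12, 6.66 and 6.59 CPM in ABA, and 11.3, 5.53 and 8.95 CPM in ACC. It had 1.02, 0.549 and 1.74 CPM in CLE12p, 1.89 and 1.28 CPM in ethanol and 0.650, 1.36 and 0.782 CPM in water. Every library with a hormone was above every library without. Every library of CLE12p with ACC was above every ABA library, and the other pairs of hormone groups overlapped. The libraries without a hormone held 13 to 39 counts of it, so its low level is set by few reads. The next gene in that order, Lsat_1_v5_gn_6_13161, had 3.73, 4.88 and 3.23 CPM in ABA and 3.42, 2.88 and 3.65 CPM in ACC, against 0.533 and 0.384 CPM in ethanol and 1.35, 0.328 and 0.736 CPM in water. In the peptide combinations this gene split, as described below.

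Whether the 60 genes also stood high when the peptide was present with a hormone could be read from the 6 combination libraries. In CLE12p with ABA, 58 of 60 genes were at least 0.5 above the controls, against 6.85% of all genes with that filter on the mean, and the median was 1.01 (range 0.42 to 2.55). Every one of the 3 libraries was above every control for 59 genes (background 13.6%). In CLE12p with ACC, 50 genes were at least 0.5 above the controls (background 6.77%), with a median of 0.79 (range -0.05 to 2.03), and 52 had every library above every control (background 12.3%). Both conditions were met by 57 genes in CLE12p with ABA (background 5.9%) and 50 in CLE12p with ACC (background 6.09%), and 51 genes were above every control in all 6 libraries (background 4.54%). The controls had been chosen low, and the combination libraries had not been chosen. The 10 genes under 0.5 in CLE12p with ACC ran from -0.05 to 0.47 there. With ACC alone they had run from 0.53 to 0.73, and in CLE12p with ABA they ran from 0.42 to 1.93. The group with the highest mean was CLE12p with ABA for 33 genes, CLE12p with ACC for 13, ABA for 7 and ACC for 7. This was not counted over all genes. Within CLE12p with ABA, replicate 2 was the highest library for 40 of the 60 genes (66.7%, against 34.7% of all genes).

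The ABA effect was then measured within the peptide, as CLE12p with ABA against CLE12p. In edgeR's quasi-likelihood test over 23413 genes, 54 of the 60 genes rose and 0 fell, where 6.24% of all genes rose and 7.93% fell. At an unadjusted p below 0.05, 58 were higher and 0 lower (11.4% and 13.6% of all genes tested), and DESeq2 called 55 higher and 0 lower (7.23% and 8.34%). Every library of CLE12p with ABA was above every CLE12p library for 54 genes (background 14.2%) and below for 0 (background 12.3%). The median log2 fold change was 0.94 (range 0.10 to 3.10), and -0.01 over all genes tested. The CLE12p libraries took part in the choice through the limit of 0.4, so this count is not fully independent of it. It was 46 when only the libraries compared were fitted, 51 without CLE12p replicate 2 and 55 without replicate 3. Over all genes tested, 1461 of 23413 rose in the main fit. In these fits 988 of 22194, 1365 of 23376 and 1291 of 23398 did. As log2(CPM + 1) differences, the ABA effect had a median of 0.85 against the controls and 0.90 within the peptide. Across the 60 genes these values, which share no library, correlated with r = 0.92 (Spearman 0.85), and across all 20479 genes with r = 0.81 (Spearman 0.60).

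Lsat_1_v5_gn_6_13161 had the highest fold change of that comparison. Its level was 5.02, 6.59 and 5.59 CPM in CLE12p with ABA, against 0.645, 0.507 and 0.819 CPM in CLE12p. That is a log2 fold change of 3.10 ± 0.32 (SE; edgeR adjusted p = 3.85e-07), and the CLE12p libraries held 12 to 16 counts each. Lsat_1_v5_gn_7_12661 had 10.2, 13.1 and 13.2 CPM in CLE12p with ABA, against 1.93, 1.01 and 1.79 CPM in CLE12p. It rose by 2.93 ± 0.25 on the log2 scale (SE; edgeR adjusted p = 2.17e-08). The groups compared did not overlap for either gene.

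The ACC effect within the peptide, as CLE12p with ACC against CLE12p, was called for fewer of the genes. In the same edgeR fit 39 of 60 rose and 0 fell, where 2.51% of all genes rose and 2.34% fell. At an unadjusted p below 0.05, 51 were higher and 0 lower (7.93% and 8.63% of all genes tested), and DESeq2 called 48 higher and 0 lower (3.28% and 3.11%). Every library of CLE12p with ACC was above every CLE12p library for 46 genes (background 7.98%) and below for 0 (background 9.63%). The median log2 fold change was 0.82 (range -0.12 to 2.88). The count was 24 when only the 6 libraries compared were fitted, 32 without CLE12p replicate 2 and 46 without replicate 3. Over all genes tested, 588 of 23413 rose in the main fit. In these fits 230 of 21996, 334 of 23376 and 808 of 23398 did. As log2(CPM + 1) differences, the ACC effect had a median of 0.74 against the controls and 0.66 within the peptide. These values, from separate libraries, correlated across the 60 genes with r = 0.72 (Spearman 0.69), and across all genes with r = 0.51 (Spearman 0.37). The ABA and ACC effects within the peptide share the CLE12p libraries, and the difference between their counts was not tested.

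**Figure D3:**
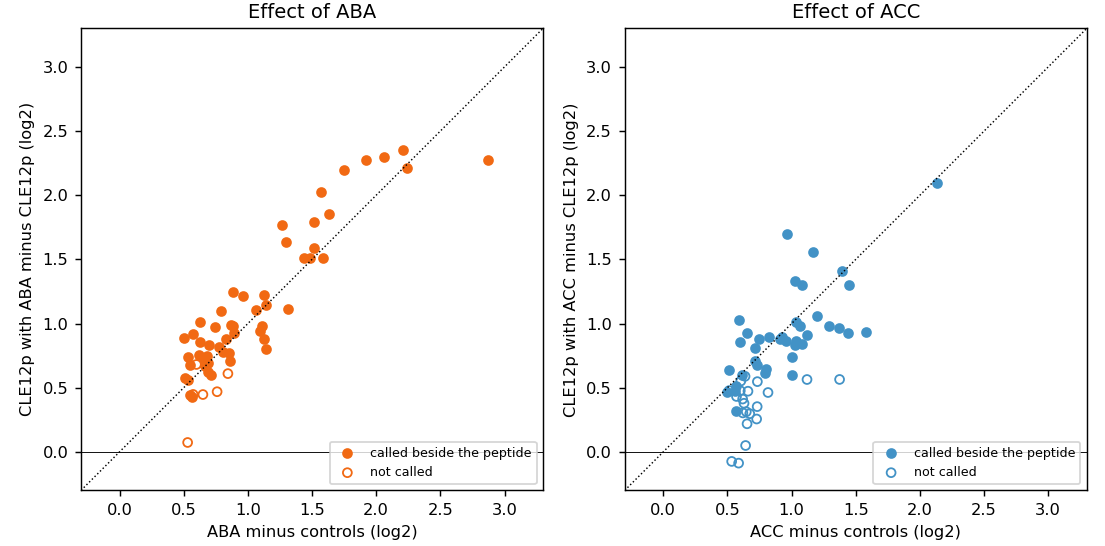
Hormone effect within the peptide (y axis) against the effect over the controls (x axis) for the 60 genes, for ABA (left) and ACC (right), both as log2(CPM + 1) differences. Filled points passed the edgeR test within the peptide (54 for ABA and 39 for ACC), the dotted line marks equal effects, and the x values start at 0.5 because of the rule.

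For ACC within the peptide, Lsat_1_v5_gn_4_7141 had the highest fold change. It stood at 7.98 ± 1.35 CPM in CLE12p with ACC and 1.10 ± 0.599 CPM in CLE12p (SD, n = 3 each), a log2 fold change of 2.88 ± 0.35 (SE; edgeR adjusted p = 4.72e-05). Lsat_1_v5_gn_4_126721 had 11.8, 22.6 and 22.4 CPM in CLE12p with ACC, against 5.59, 3.59 and 6.29 CPM in CLE12p. It rose by 1.90 ± 0.26 (SE; edgeR adjusted p = 1.44e-04). CLE12p with ACC replicate 1 was well below its fellow libraries for this gene, and above every CLE12p library.

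Setting CLE12p with ABA against CLE12p with ACC gave the comparison whose libraries had no part in the choice, and asked whether the hormones raised the genes to the same level. In edgeR 19 of the 60 genes were higher with ABA and 2 were lower (31.7% and 3.33%), where 10.4% of all genes tested were higher and 11.7% lower. The median log2 fold change was 0.25 (range -0.60 to 2.07), and 44 of 60 genes were above 0, while the median over all genes was 0.00. Without CLE12p with ABA replicate 2 the median of the 60 genes was 0.13, with 39 above 0. Without any other 1 of the libraries compared it was 0.20 to 0.31. The libraries did not overlap for 24 genes that were higher (background 20.1%) and 5 that were lower (background 15.1%). Leaving out 1 library gave 15 to 20 genes higher, and 1990 to 2301 over all genes tested, where the main fit gave 2444. The count of lower genes was 1 without CLE12p with ABA replicate 1 or 3 or CLE12p with ACC replicate 2, 5 without CLE12p with ACC replicate 1, and 5 in a fit of the 6 libraries alone. Over all genes tested, 2748 were lower in the main fit, 2210 to 2562 with 1 library left out and 2083 in the fit of the 6 libraries. For the remaining 39 genes a difference did not pass the test, which does not show equal levels.

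The genes higher with ABA were led by Lsat_1_v5_gn_7_12661, which had 10.2, 13.1 and 13.2 CPM in CLE12p with ABA and 3.63, 2.57 and 2.23 CPM in CLE12p with ACC. Its log2 fold change was 2.07 ± 0.23 (SE; edgeR adjusted p = 5.52e-07). Lsat_1_v5_gn_4_31601 had 17.1, 17.3 and 22.4 CPM in CLE12p with ABA and 2.85, 3.34 and 6.98 CPM in CLE12p with ACC, a log2 fold change of 2.04 ± 0.27 (SE; edgeR adjusted p = 4.89e-06). Its CLE12p with ACC libraries lay on both sides of the controls, which ran from 3.42 to 5.08 CPM. Lower with ABA was Lsat_1_v5_gn_1_50121, an abundant gene with 110, 111 and 105 CPM in CLE12p with ABA and 153, 165 and 163 CPM in CLE12p with ACC. Its log2 fold change was -0.60 ± 0.10 (SE; edgeR adjusted p = 8.75e-05). Lsat_1_v5_gn_8_164760 had 150, 237 and 177 CPM in CLE12p with ABA and 274, 285 and 252 CPM in CLE12p with ACC, a log2 fold change of -0.57 ± 0.16 (SE; edgeR adjusted p = 0.0149). It did not pass when CLE12p with ABA replicate 1 or 3 or CLE12p with ACC replicate 2 was left out (edgeR adjusted p from 0.0573 to 0.0936).

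**Figure D4:**
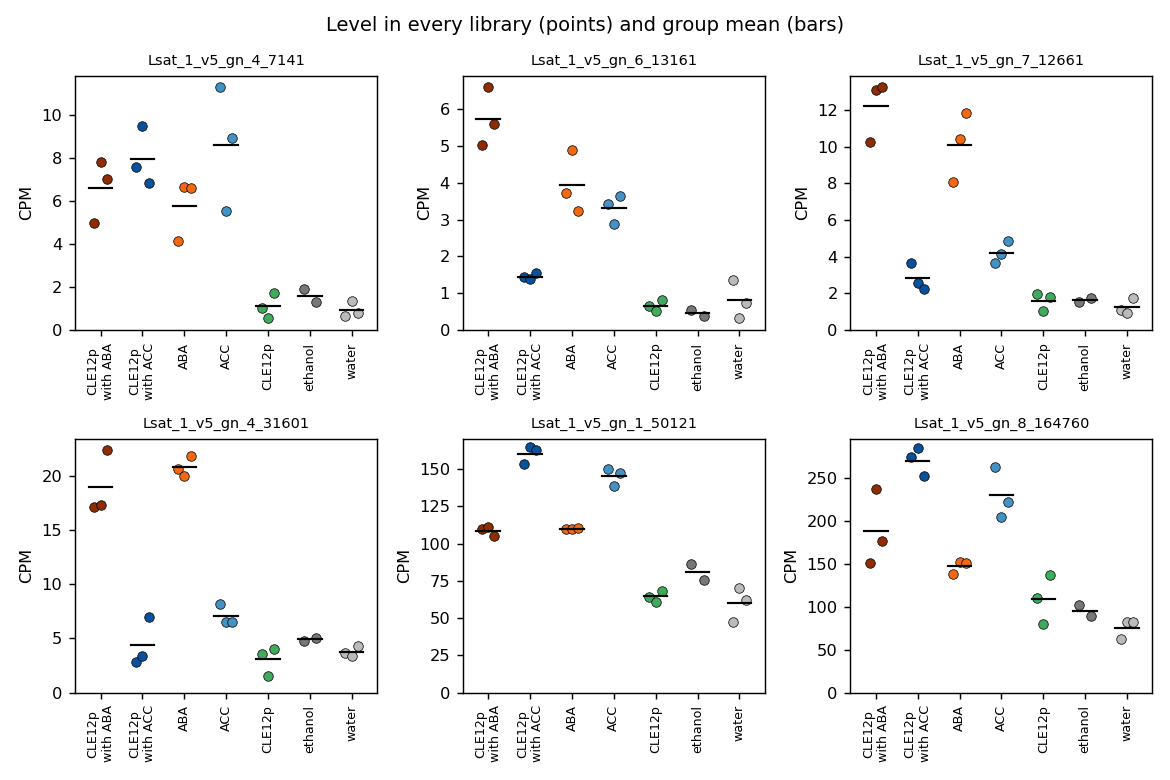
CPM in every library (points) and the group mean (bars) for 6 of the genes named in the text, each on its own linear axis from 0. The first gene is higher in every library with a hormone than in any without, the next 3 are higher in CLE12p with ABA than in CLE12p with ACC, and the last 2 are higher in CLE12p with ACC.

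The order of the hormones without the peptide was set beside it. The 60 genes were divided by the difference between ABA and ACC alone, with 13 at least 0.5 higher in ABA, 5 at least 0.5 higher in ACC and 42 between. The rule used these ABA and ACC values, and the counts below are a description beside the same classes over all genes. Of the 13 genes leaning to ABA, 12 were called higher in CLE12p with ABA than in CLE12p with ACC and 0 lower, with a median log2 fold change of 0.96 and all 13 above 0. Over all genes of that class 63.2% were called higher, with a median of 0.63. Of the 5 leaning to ACC, 0 were called higher and 1 lower, with a median of -0.39 and 4 below 0, where 70.7% of all genes of that class were called lower, with a median of -0.84. Of the 42 between, 7 were called higher and 1 lower, with a median of 0.16 and 30 above 0, where 7.42% of all genes of that class were called higher and 8.21% lower. With a limit of 0.3, 14 of 17 genes leaning to ABA were called higher (44.6% over all genes) and 2 of 11 leaning to ACC were called lower (54.6%). The difference between ABA and ACC and that between CLE12p with ABA and CLE12p with ACC come from separate libraries. They correlated across the 60 genes with r = 0.84 (Spearman 0.80) and had the same sign in 42 (70%). Across all 20479 genes they correlated with r = 0.80 (Spearman 0.60) and had the same sign in 69.0%, so the share among the 60 genes is at the background.

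**Figure D5:**
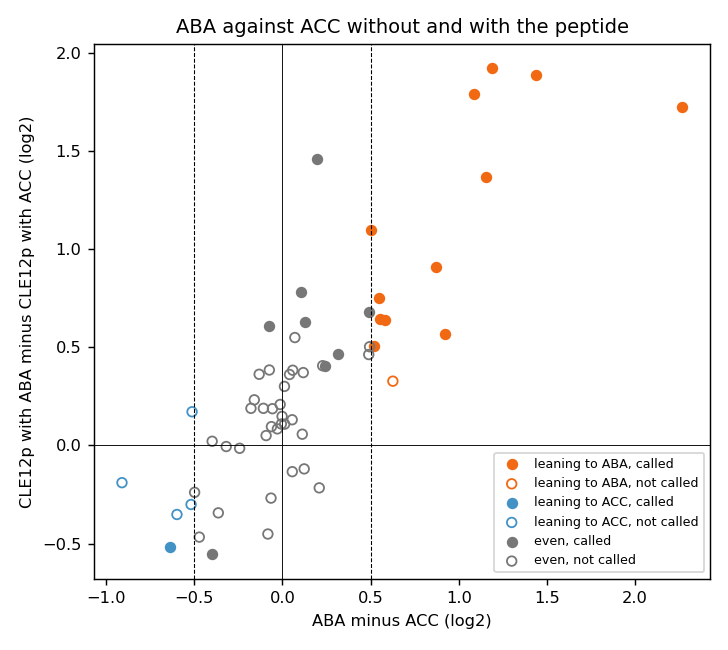
Difference between CLE12p with ABA and CLE12p with ACC (y axis) against the difference between ABA and ACC (x axis) for the 60 genes, as log2(CPM + 1) differences from separate libraries. Filled points passed the edgeR test of CLE12p with ABA against CLE12p with ACC, and dashed lines mark the limits of -0.5 and 0.5. All 13 genes right of the upper limit are above 0 on the y axis.

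Few of these genes passed the test when the peptide was added to each hormone, which does not show that the others were unchanged. The ABA and ACC libraries had been chosen high, so neither comparison is independent of the choice. In CLE12p with ABA against ABA, edgeR called 3 of 60 genes higher and 0 lower, where 2.65% of all genes tested were higher and 1.28% lower. At an unadjusted p below 0.05, 11 were higher and 0 lower (9.78% and 8.15% of all genes tested), and DESeq2 called 4 higher and 0 lower (3.64% and 2.13%). The median log2 fold change was 0.17 (range -0.33 to 0.60), with 44 of 60 above 0, and 0.00 over all genes. CLE12p with ABA replicate 2 was the highest of its group for 40 of the 60 genes (66.7%, against 34.7% of all genes), and without it the median was 0.10. The 3 calls fell to 0 without ABA replicate 1 or 2 and to 1 without ABA replicate 3 or without CLE12p with ABA replicate 2, while fitting only the libraries compared gave 5. Over all genes tested, 620 were higher in the main fit. Without ABA replicate 1, 2 or 3 this was 349, 395 and 399, and without CLE12p with ABA replicate 2 it was 319. Fitting only the libraries compared gave 711.

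Lsat_1_v5_gn_5_90060 had 14.5, 19.1 and 16.0 CPM in CLE12p with ABA, against 11.0, 10.6 and 11.2 CPM in ABA. Its log2 fold change was 0.60 ± 0.16 (SE; edgeR adjusted p = 0.0357). Lsat_1_v5_gn_9_89660 had 21.3, 27.9 and 20.5 CPM in CLE12p with ABA, against 13.2, 17.4 and 15.8 CPM in ABA. Its log2 fold change was 0.58 ± 0.16 (SE; edgeR adjusted p = 0.0411). For both genes the groups did not overlap. Both calls were lost without any 1 of the ABA libraries or without CLE12p with ABA replicate 2 (edgeR adjusted p from 0.0541 to 0.252), and the second also with replicate number as a block (edgeR adjusted p = 0.0540).

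In CLE12p with ACC against ACC, edgeR called 1 of 60 genes higher and 4 lower, where 3.26% of all genes tested were higher and 1.73% lower. The median log2 fold change was 0.00 (range -1.17 to 0.51), and 30 of 60 genes were above 0. The count of lower genes was 1 without ACC replicate 1 or CLE12p with ACC replicate 2, and 2 without ACC replicate 3 or CLE12p with ACC replicate 1 or 3. Over all genes tested, 404 were lower in the main fit and 198 to 346 in these fits. Lsat_1_v5_gn_7_14220 had 59.5, 56.3 and 47.5 CPM in CLE12p with ACC, against 44.0, 45.0 and 44.0 CPM in ACC, a log2 fold change of 0.31 ± 0.09 (SE; edgeR adjusted p = 0.0422). Its call was lost without any 1 of the ACC libraries or without CLE12p with ACC replicate 1 or 2 (edgeR adjusted p from 0.101 to 0.171), and also with library totals alone (edgeR adjusted p = 0.0659) and with replicate number as a block (edgeR adjusted p = 0.0534). Without CLE12p with ACC replicate 1 a different gene was called higher, and in the other 4 of these leave-outs 0 were. It was also the third gene called higher in CLE12p with ABA against ABA (0.39 ± 0.09, SE; edgeR adjusted p = 0.0133).

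Lower beside ACC was Lsat_1_v5_gn_6_13161, with 1.43, 1.38 and 1.54 CPM in CLE12p with ACC, against 3.42, 2.88 and 3.65 CPM in ACC. Its log2 fold change was -1.17 ± 0.29 (SE; edgeR adjusted p = 0.0200), on 29 to 38 counts per library in CLE12p with ACC. That call was lost without ACC replicate 1 or 3 or any 1 of the CLE12p with ACC libraries (edgeR adjusted p from 0.0501 to 0.0768). Lsat_1_v5_gn_8_73380 had 8.60, 6.77 and 9.25 CPM in CLE12p with ACC, against 16.1, 15.6 and 12.6 CPM in ACC. It fell by 0.82 on the log2 scale (SE 0.16; edgeR adjusted p = 0.00359), and the call held without each of the 6 libraries in turn. In CLE12p with ACC it lay within the range of its controls, at 6.87 to 9.78 CPM, except for replicate 2 just below it. In CLE12p with ABA the same gene had 36.6, 37.8 and 27.1 CPM, against 35.2, 38.8 and 31.2 CPM in ABA (-0.05 ± 0.15, SE; edgeR adjusted p = 0.910).

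Whether the peptide's effect differed between the hormones was tested as its effect beside ABA minus its effect beside ACC. In edgeR 1 of 60 genes was called higher and 0 lower, where 0.666% of all genes tested were higher and 0.414% lower. At an unadjusted p below 0.05, 10 were higher and 2 lower (6.42% and 7.13% of all genes tested), and DESeq2 called 3 higher and 0 lower (1.52% and 1.13%). The ABA and ACC libraries in this contrast are those the rule required to be high, so the test is not independent of the choice. The gene called was Lsat_1_v5_gn_6_13161, at 1.70 ± 0.40 (SE; edgeR adjusted p = 0.0400), and its call was lost in 10 of 12 fits that left out 1 library (edgeR adjusted p up to 0.113). Over all genes tested, 253 were called in the main fit and 11 to 491 in those 12 fits.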

How the data were processed

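Raw read counts per gene model were deposited by the authors as 1 table of 20 libraries, with no normalization. Reads were aligned with STAR 2.7.10a, per the submitters' processing notes. Not given in the sources used here are the counting tool, the strand setting and the genome build, so reads of overlapping, antisense or near-identical genes cannot be told apart. All 20 columns were matched to samples by title, and 0 columns were left unused. The identifiers were compared with a RefSeq gene table of assembly Lsat_Salinas_v11, and 0 of 37828 matched.

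CPM was computed from the column totals, and differences were taken between log2 values of group mean CPM with a pseudocount of 1. Tests used edgeR 4.0.16 with limma 3.58.1 in R 4.3.3. One quasi-likelihood model held all 7 groups, after filterByExpr with a minimum count of 10 (23413 genes) and TMM normalization (factors 0.961 to 1.03; common biological coefficient of variation 0.117). Tests were two-sided with Benjamini-Hochberg adjustment over all genes tested and a threshold of 0.05, and the SE is the log2 fold change over the root of F. DESeq2 1.42.0 was an alternative. The difference between the peptide's effects beside ABA and beside ACC was added after seeing the data. The edgeR quasi-likelihood fit was tried on simulated data for CLE12p with ABA against CLE12p with ACC only.

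The members and lists were chosen with earlier results of these data known. Without gene names, the genes named are the pair with the highest smaller value of the ABA and ACC differences and, per comparison, up to 2 higher and 2 lower genes past the threshold with no overlap between groups. Correlations across genes are descriptions, since genes of the same libraries share depth and are not independent replicates.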

Additional observations from a re-analysis of the deposited data

Results flagged for a closer look

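For Lsat_1_v5_gn_6_13161 a test of the difference between the peptide's effects beside ABA and beside ACC passed the threshold, but not in most alternatives. The ABA and ACC libraries it uses were required to be high by the rule, so it is not independent of the choice. The log2 fold change of CLE12p with ABA against ABA was 0.54 ± 0.27 and that of CLE12p with ACC against ACC was -1.17 ± 0.29, a difference of 1.70 ± 0.40 (SE; edgeR adjusted p = 0.0400). The test of this difference was added after seeing the data. Among the 60 genes 1 was called higher and 0 lower, where 0.666% of all genes tested were higher and 0.414% lower, and 10 were higher and 2 lower at an unadjusted p below 0.05 (6.42% and 7.13% of all genes tested). The call was kept with DESeq2 (adjusted p = 0.00296). It was lost in 10 of 12 fits that left out 1 library, where the value ran from 1.59 to 1.90 and the edgeR adjusted p reached 0.113. It was also lost with replicate number as a block (edgeR adjusted p = 0.0594). Calls over all genes tested numbered 253 in the main fit, 11 to 491 in the 12 leave-out fits and 160 with the block.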

How the results depend on the processing

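Fitting only the libraries compared gave 5 genes lower in CLE12p with ABA than in CLE12p with ACC. Against CLE12p, it gave 46 higher in CLE12p with ABA and 24 higher in CLE12p with ACC. It also gave 5 higher in CLE12p with ABA than in ABA and 2 higher in CLE12p with ACC than in ACC. The last count was 0 with library totals and 2 with DESeq2. For the peptide's effect beside ABA minus beside ACC, 3 genes were called higher in the fit of only the libraries compared and 3 with DESeq2. With a leaning limit of 1, all 5 genes leaning to ABA were called higher (89.2% over all genes of that class), and 0 genes leaned to ACC. With a limit of 0.3, 2 of 11 genes leaning to ACC were called lower (54.6% over all genes of that class). Calls over all genes tested also changed in the alternative fits. The cause of these changes was not tested.

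Leaving out 1 library gave 15 to 20 genes higher and 1 to 5 lower for CLE12p with ABA against CLE12p with ACC. It gave 51 to 55 higher for CLE12p with ABA against CLE12p, 32 to 46 for CLE12p with ACC against CLE12p and 0 to 4 for CLE12p with ABA against ABA. For CLE12p with ACC against ACC it gave 0 to 1 higher and 1 to 3 lower, and for the difference of the peptide's effects 0 to 2 higher. Calls over all genes tested also changed with the library left out. The rule itself then picked 46 to 69 genes. It picked 58 with TMM library sizes, 65 with a pseudocount of 0.5 and 82 with water alone as the control, of which 57, 57 and 55 were among the 60.

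The labels give the groups the same replicate numbers. Over all genes tested, the deviations of same-numbered libraries from their group means correlated weakly (from -0.221 to 0.114). With so few libraries per group, these values cannot tell whether same-numbered samples shared a batch. With replicate number as a block, 19 genes were higher and 2 lower in CLE12p with ABA than in CLE12p with ACC, 54 rose in CLE12p with ABA and 40 in CLE12p with ACC against CLE12p, 2 were higher beside ABA, 0 were higher and 3 lower beside ACC, and 0 were called for the difference of the peptide's effects.

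Of 174 values for single genes recomputed under alternatives, 0 changed sign and 35 lost their call. These genes were picked as called in the main fit and the alternatives reuse the same counts, so the kept signs are no independent check. Of 186 recomputed counts, 145 stayed within 1.5 times the main count, and a count has no direction to reverse. Depth limits the genes with few counts in the libraries without a hormone.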

Other observations

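By the first number in their identifiers, 10 of the 60 genes fell in group 1 (16.7%, against 9.72% of all genes that passed the filter on the mean) and 4 in group 5 (6.67%, against 13.8%). What these numbers stand for is not given in the sources used here, and the shares were not tested. In identifier order, 3 pairs of the 60 genes were direct neighbours.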
